A study of Mus musculus with 63 samples.

Results

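The mitochondrial ribosomal protein genes were described in the hearts of 8 mouse strains. The genes were chosen by name alone, as every gene of the deposited count table whose symbol starts with Mrpl or Mrps followed by a number, and 78 of the 19220 listed genes met that rule. The rule itself used no expression value, but the table lists only genes with counts in 32 libraries or more. Earlier results of these data were known when the genes were chosen. All 78 passed the filter on low counts, which kept 16425 genes in all. The set holds 77 protein-coding genes, of which 48 are named Mrpl and 29 Mrps, and 1 processed pseudogene, Mrpl23-ps1. By the place of the protein, 50 belong to the large subunit, among them Mrps30 and Mrps18a in spite of their names, and 26 to the small subunit. The remaining gene, Mrps36, carries a ribosomal name, but its product is known as a component of the 2-oxoglutarate dehydrogenase complex. The genes lie on 17 chromosomes, with none on X or Y.

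The mitochondrial ribosome is the machine that translates the few messenger RNAs of the mitochondrial genome, all of which encode subunits of the respiratory chain and of ATP synthase. Its ribosomal RNAs are transcribed inside the organelle, whereas every one of its proteins is encoded in the nucleus, made in the cytosol and imported. Some of these proteins descend from the bacterial ribosome and others exist only in mitochondria. The heart relies on oxidative phosphorylation, and inherited defects of several of these proteins, MRPL3 and MRPL44 among them, cause cardiomyopathy in people.

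The hearts came from mice of the 8 founder strains of the Diversity Outbred population, which go by the names Cast, PWK and WSB for the wild-derived inbred strains and 129, AJ, B6, NOD and NZO for the others. Each strain had 8 libraries except Cast with 7, which made 63, and all mice received the same diet, rich in fat and sugar and labelled as 45% fat. No other diet was analysed here, and age and sex are not in the labels used here. Libraries are named by strain and number, so WSB_1 is number 1 of WSB, and nothing beyond these numbers says that the libraries of a strain are separate animals.

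The depth of a library lay between 21.8 M estimated counts (Cast_2) and 42.9 M (AJ_1), the median being 30.4 M, and between 49034 and 128029 counts of each library fell on the 78 genes. The summed level of 10 cardiomyocyte markers ran from 44819 to 90419 CPM (counts scaled to the effective library size after TMM normalisation), and of the markers of skeletal muscle, the fast myosins Myh1 and Myh2 and the fast troponin Tnnt3 did not pass the filter. Acta1 and Ckm of the same list, which are also expressed in heart, did pass, with strain means from 126 CPM in B6 to 1825 CPM in NZO for Acta1 and from 1012 CPM in PWK to 1697 CPM in AJ for Ckm. The part of this in the results was not tested. In a bulk sample fewer cells of a type and less RNA per cell cannot be told apart. A pair of libraries stood apart from their strains. WSB_1 had the lowest cardiomyocyte sum, 44819 CPM against a WSB median of 78432, and the highest sum of cytosolic ribosomal protein genes, 16834 CPM. Of 192 genes that set the other WSB libraries apart from every other strain, WSB_1 lay with WSB in 121 (63%). NZO_8 lay with its strain in 83 of 115 such genes (72.2%) and had the highest macrophage and fibroblast sums, 368 and 1954 CPM. For each other library the share was at least 83.1%.

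The promoters of the set share sequence features that the choice by name did not use. RefSeq promoters of GRCm38.p6, each with 250 bases before and 50 after the start, were matched for 68 of the 78 genes. A gene was counted if any of its promoters held the motif. The background was all 27025 genes with such a promoter, not only those expressed in heart. On either strand, the core bound by GABPA and other ETS factors (CCGGAAG) stood in 25 of the 68 (36.8%), against 9.93% of that background. The palindromic NRF1 motif stood in 13 (19.1%) against 5.19%, and the YY1 core (AAGATGGCG) in 8 (11.8%) against 1.64%. At least 1 of the 3 motifs stood in 40 (58.8%), against 15.1% of all genes with a promoter. GABPA and NRF1 are known regulators of nuclear genes for mitochondrial proteins. A match is a description of the letters only, and no binding was measured here.

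The 120 bases before the RefSeq start are shown for 3 genes that differ widely among the strains and hold such a motif. Capitals mark the motif, and all 3 are on the plus strand. They are Mrpl30 at chr1:37890357-37890476, Mrpl34 at chr8:71464806-71464925 and Mrpl3 at chr9:105053148-105053267. The NRF1 motif of Mrpl30 begins 83 bases before the start, and the ETS cores of Mrpl34 and Mrpl3 begin 37 and 19 bases before it.
Mrpl30: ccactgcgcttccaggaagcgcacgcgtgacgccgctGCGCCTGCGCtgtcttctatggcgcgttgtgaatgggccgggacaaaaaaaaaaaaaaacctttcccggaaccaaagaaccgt
Mrpl34: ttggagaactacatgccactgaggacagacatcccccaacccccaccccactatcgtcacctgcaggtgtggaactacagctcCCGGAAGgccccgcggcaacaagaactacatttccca
Mrpl3: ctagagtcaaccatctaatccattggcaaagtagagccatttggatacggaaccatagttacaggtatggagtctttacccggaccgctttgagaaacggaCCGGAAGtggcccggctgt

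Mrpl23 and Mrpl23-ps1 are shown because their sequences bear on how reads were divided between them. Mrpl23 encodes a large subunit protein beside the exit of the peptide tunnel. Its main transcript has 692 bases, and the transcript of the pseudogene has 580. In GENCODE M21 they share a run of 540 bases with 0 mismatches, which holds all 441 coding bases of Mrpl23, stop codon included. Below are the 120 coding bases from the start codon of each. Capitals mark the start codon and the bases on both sides of the point where the first intron of Mrpl23 was removed, after coding base 17. The pseudogene, on the minus strand of chromosome 2 at 74591330 to 74591909, reads through that point without an intron, while Mrpl23, on the plus strand of chromosome 7 at 142532799 to 142540747, has 5 coding exons.
Mrpl23: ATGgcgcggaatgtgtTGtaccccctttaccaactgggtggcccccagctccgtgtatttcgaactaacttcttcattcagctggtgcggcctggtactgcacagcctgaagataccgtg
Mrpl23-ps1: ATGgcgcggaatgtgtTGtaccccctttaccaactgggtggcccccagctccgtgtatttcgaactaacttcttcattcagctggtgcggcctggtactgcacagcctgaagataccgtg

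The question for every gene was whether its level differed among the strains, and in which strain. Over all 8 strains, 74 of the 78 genes passed (edgeR's quasi-likelihood F test, Benjamini-Hochberg adjusted p under 0.05 over all genes tested). The background was 89.4%, since 14677 of the 16425 genes tested passed, so passing was the rule in this table and not particular to these genes. Those that did not pass were Mrpl2 (adjusted p = 0.714), Mrps24 (0.155), Mrpl22 (0.103) and Mrpl52 (0.0717). Mrpl2, whose protein lies close to the peptidyl transferase centre, ranged only from 37.4 to 40.6 CPM between strain means.

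The differences were mostly small. The range between the highest and the lowest strain mean had a median of 0.54 log2 units over the 78 genes, against 0.78 over all genes tested. It exceeded 1 log2 unit in 9 genes (11.5%), against 39.1% of all genes, and it stayed under 0.5 in 38. The share of variance between strains (adjusted R2 of log2 CPM) had a median of 0.51 for the set and 0.44 for all genes, and it was above 0.5 in 51.3% of the set and 42.7% of all genes. The levels were also even. The mean over libraries ran from 7.68 CPM for Mrpl23 to 101 CPM for Mrpl42, with 64 of the 78 genes between 10 and 50 CPM and a median of 27.6 CPM, against 9.60 CPM for all genes. Per kilobase of exon, the highest levels were those of Mrps21 (59.2 CPM per kilobase), Mrps23 (51.7) and Mrpl12 (50.3), and the lowest those of Mrpl23 (1.57), Mrps10 (2.21) and Mrpl32 (2.94). Both low values of Mrpl23 count only the reads assigned to its own row. Summed with Mrpl23-ps1, its strain means lay between 21.6 and 27.99 CPM. Exon length covers all annotated exons, which for Mrpl23 is 4883 bases, against 692 in its main transcript.

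Mrpl23 had the widest range of any protein-coding member. In Cast its level was 21.6 ± 2.01 CPM (SD, n = 7; lowest 19.0, median 21.8, highest 24.9), and in PWK it was 27.95 ± 2.09 CPM (SD, n = 8; lowest 25.4, median 27.9, highest 32.2). In the 6 other strains the means lay between 1.60 CPM in WSB and 2.64 CPM in AJ, and single libraries between 0.471 and 3.46 CPM. Every library of Cast and PWK was thus far above every library of the 6 other strains. The difference from the mean of the other 7 strains was 2.92 ± 0.12 log2 units in Cast (± SE, edgeR adjusted p = 1.58e-29) and 3.34 ± 0.12 in PWK (adjusted p = 2.62e-34).

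Mrpl23-ps1 showed the opposite pattern. It had 0 counts in all Cast libraries together and 10 counts in PWK, spread over 2 libraries, while its strain means lay between 21.4 and 24.3 CPM elsewhere. Against a floor of 3 counts over the 7 Cast libraries (0.0145 CPM), Cast was lower by at least 1570-fold relative to the 22.8 CPM that the 6 strains with it averaged, and the floor covers counting error only. Of the reads given to either row, the median share assigned to Mrpl23 was between 6.24% in WSB and 9.53% in AJ in those 6 strains, and 100% in both Cast and PWK.

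With both rows summed, the contrast between the strains was small. The sum averaged 21.6 ± 2.01 CPM in Cast (SD, n = 7) and 27.99 ± 2.07 CPM in PWK (SD, n = 8), which were the lowest and the highest strain means, and their range was 0.37 log2 units, against 4.14 for Mrpl23 alone. On the sum, Cast lay 0.22 ± 0.08 log2 units below the other strains (log2 fold change -0.22, edgeR adjusted p = 0.0176), where Mrpl23 alone lay 2.92 above. PWK lay 0.21 ± 0.07 above (adjusted p = 0.0155), and the 6 other strains did not pass (adjusted p from 0.273 to 0.666). The library WSB_1 had 49.5 CPM, when the others of WSB had 20.2 to 23.1 CPM. Over the 8 strain means, the genes most alike in pattern to Mrpl23-ps1 were the ribosomal protein pseudogene Rpl19-ps11 (Pearson r = 0.9997), Gm12174 (0.9997) and mt-Co2 (0.9982). These are descriptions over 8 means that share libraries and scaling. Mrpl23 and its pseudogene account for 1 higher and 1 lower call in every strain counted below, except PWK, where Mrpl23 was called and the pseudogene was not.

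**Figure D1:**
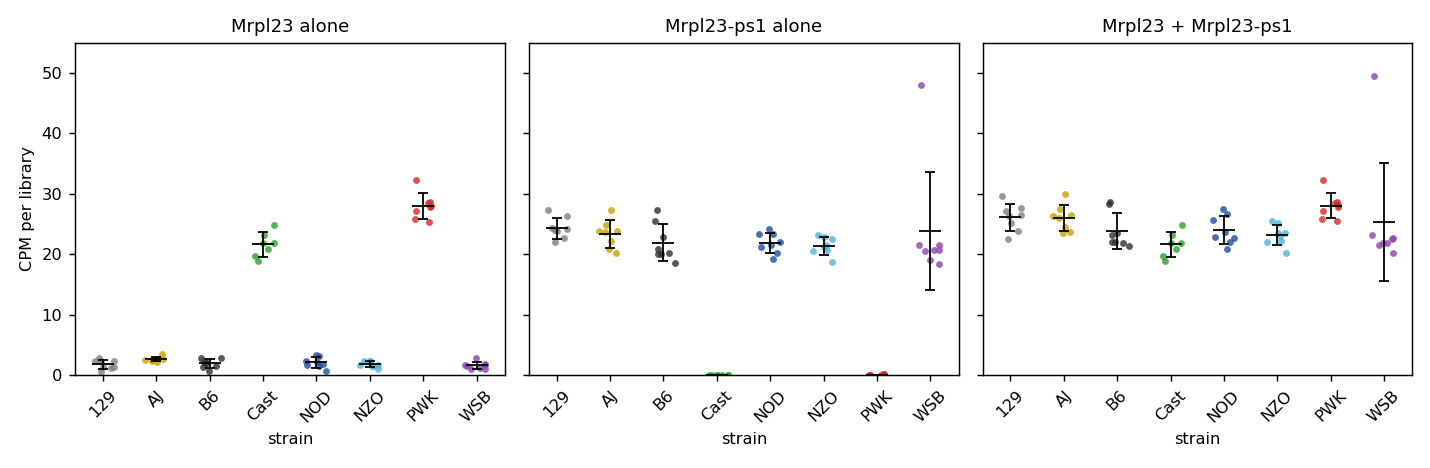
Level in CPM (y axis) of Mrpl23, Mrpl23-ps1 and their sum in each library (points) by strain (x axis), with mean and SD (black). Mrpl23 alone is high only in Cast and PWK, Mrpl23-ps1 is at or near 0 only there, and the summed strain means lie between 21.6 and 27.99 CPM, with WSB_1 alone at 49.5.

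Apart from Mrpl23, the widest range was that of Mrps17, a small subunit protein of bacterial descent that binds the ribosomal RNA (chromosome 5, 129715497 to 129722556). PWK had 12.6 ± 0.888 CPM (SD, n = 8; lowest 11.3, median 12.4, highest 14.0), while all 55 other libraries lay between 28.7 and 49.0 CPM. No PWK library overlapped with any other, which was true of 1.35% of all genes tested for levels below the rest. The difference was -1.57 ± 0.05 log2 units (± SE, edgeR adjusted p = 2.39e-38), and strain accounted for 0.97 of its variance (adjusted R2). Within the other 7 strains Mrps17 also varied. It was highest in 129 at 46.8 ± 2.32 CPM (SD, n = 8; 0.59 ± 0.04 log2 units, adjusted p = 6.59e-20), and Cast, NOD and WSB were higher as well by 0.41, 0.36 and 0.23. AJ, NZO and B6, at 33.3, 33.5 and 31.0 CPM, did not pass.

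Mrpl30, a large subunit protein of bacterial descent (chromosome 1, 37890477 to 37898535), was the other gene with every PWK library below all others. PWK had 35.8 ± 2.56 CPM (SD, n = 8; lowest 32.8, median 35.1, highest 40.2), against 63.4 to 100.5 CPM in the 55 other libraries. The difference was -1.19 ± 0.05 log2 units (edgeR adjusted p = 7.39e-32). Among the other strains the means were close together, from 75.6 CPM in NOD to 89.6 CPM in AJ. The Mrpl30 pseudogenes Gm11945 and Gm6238, of at least 95% identity, are not in the count table. GRCm38, the genome named in the submitters' notes, is that of B6. The part of read alignment in the low PWK levels of Mrps17 and Mrpl30 was not tested. Mrpl55 went the other way in PWK, at 31.3 ± 2.28 CPM (SD, n = 8; 0.57 ± 0.05, adjusted p = 4.58e-16), and it is described with B6.

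In Cast, 1 protein-coding gene stood above and 3 below every library of the other strains, where 2% and 1.52% of all genes did so. Mrpl16 encodes a large subunit protein near the site where incoming tRNAs bind (chromosome 19, 11770415 to 11774944). Its level in Cast was 49.2 ± 4.02 CPM (SD, n = 7; lowest 41.2, median 49.6, highest 53.7), against 18.4 to 33.3 CPM in the 56 other libraries. The difference was 0.96 ± 0.05 log2 units (edgeR adjusted p = 1.01e-27). AJ and NOD had the lowest means, 20.6 and 21.3 CPM, and both passed as lower (-0.48 and -0.42).

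Mrpl34, a large subunit protein of bacterial descent (chromosome 8, 71464926 to 71465752), was low in Cast at 9.83 ± 2.56 CPM (SD, n = 7; lowest 6.94, median 8.75, highest 13.4), when the 56 other libraries had 18.3 to 34.4 CPM. The difference was -1.35 ± 0.08 log2 units (edgeR adjusted p = 2.23e-23). The highest mean was that of AJ at 31.2 ± 2.48 CPM (SD, n = 8; 0.56 ± 0.06, adjusted p = 1.62e-11), followed by WSB at 29.0 CPM (0.44).

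Mrpl42 and Mrpl39 complete the group and encode large subunit proteins found only in mitochondria. Mrpl42 (chromosome 10, 95480806 to 95501927) had 55.5 ± 13.8 CPM in Cast (SD, n = 7; lowest 36.9, median 56.9, highest 69.8), against 81.9 to 134.8 CPM elsewhere (-0.95 ± 0.07 log2 units, adjusted p = 1.68e-19). Mrpl39 (chromosome 16, 84717576 to 84735742) had 29.1 ± 3.01 CPM (SD, n = 7; lowest 24.0, median 30.9, highest 31.5), against 32.9 to 59.9 CPM (-0.78 ± 0.06, adjusted p = 1.45e-18). Both were the lowest in Cast without overlap, although the Mrpl39 level of 32.9 CPM in WSB_1 came close. The Mrpl42 pseudogene Gm6419, of 96.27% identity, is not in the count table. The part of read alignment in the low Cast levels of Mrpl34, Mrpl42 and Mrpl39 was not tested.

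The other 2 genes with no overlap were high in 1 strain each, as were 0.353% of all genes in NZO and 0.353% in WSB. Mrps10, a protein of the head of the small subunit (chromosome 17, 47368887 to 47381417), had 26.1 ± 2.38 CPM in NZO (SD, n = 8; lowest 21.9, median 26.3, highest 29.0), when the other libraries had 11.7 to 21.0 CPM. The difference was 0.66 ± 0.05 log2 units (edgeR adjusted p = 6.1e-18), and B6 was lowest at 13.5 CPM (-0.43). Mrps35, a small subunit protein specific to mitochondria (chromosome 6, 147042764 to 147073991), had 73.5 ± 7.31 CPM in WSB (SD, n = 8; lowest 62.5, median 72.7, highest 87.7), against 35.0 to 58.8 CPM elsewhere (0.65 ± 0.05, adjusted p = 4.43e-18). Besides Mrpl23 in PWK, above all other libraries as 1.96% of all genes were, no further gene of the set was separated in this way. In 129, AJ, B6 and NOD 0 members stood above all other libraries, where 0.177%, 0.323%, 0.268% and 0.14% of all genes did. In 129, AJ, B6, NOD, NZO and WSB 0 members stood below, where 0.122%, 0.128%, 0.116%, 0.122%, 0.152% and 0.384% of all genes did.

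**Figure D2:**
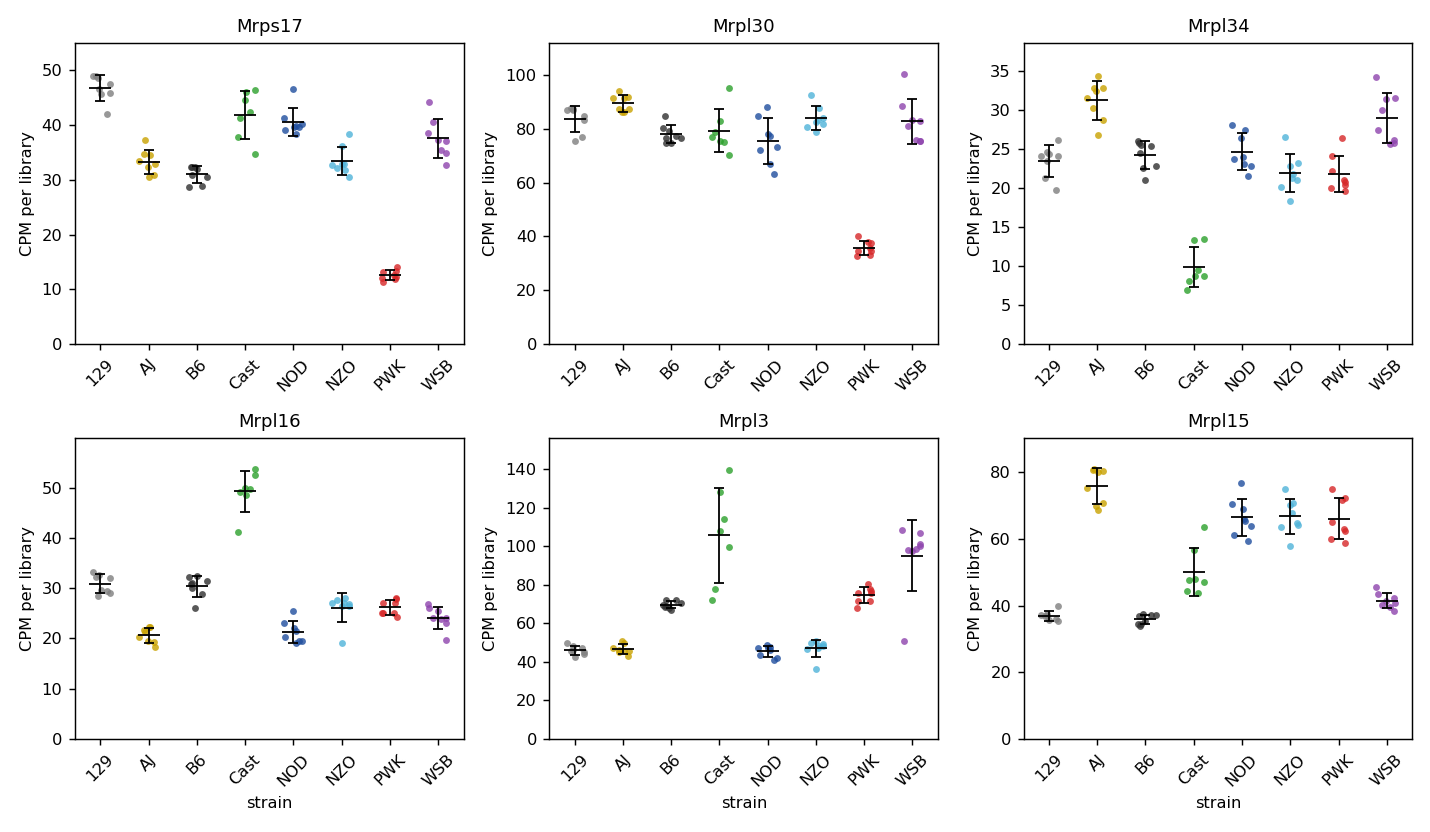
Level in CPM (y axis) of 6 genes in each library (points) by strain (x axis), with mean and SD (black). The PWK libraries of Mrps17 lie between 11.3 and 14.0 CPM, below the 28.7 to 49.0 CPM of all others, and Mrpl3 and Mrpl15 fall into levels that several strains share.

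For 2 large subunit genes the strains fell into groups instead of 1 strain standing out. Mrpl15 encodes a protein of bacterial descent (chromosome 1, 4773206 to 4785739). It was low in B6 at 35.9 ± 1.43 CPM (SD, n = 8; lowest 34.0, median 36.1, highest 37.3), in 129 at 36.9 ± 1.42 CPM (SD, n = 8; lowest 35.3, median 36.8, highest 39.9) and in WSB at 41.5 ± 2.34 CPM (SD, n = 8; lowest 38.4, median 41.0, highest 45.7). It was high in AJ at 75.8 ± 5.42 CPM (SD, n = 8; lowest 68.6, median 77.8, highest 80.99), and NOD, NZO and PWK had 66.5, 66.7 and 66.0 CPM. Every library of the 3 low strains was thus below every library of these 4. Against the other strains, the differences in edgeR were -0.64 in B6 (adjusted p = 3.78e-18), -0.59 in 129 (1.13e-16), -0.40 in WSB (6.99e-11) and 0.59 in AJ (8.79e-19). Cast lay between, at 50.1 CPM (-0.09, adjusted p = 0.108).

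Mrpl3 encodes a protein close to the peptidyl transferase centre (chromosome 9, 105053239 to 105079888). Its 4 low strains were almost level, with means of 45.5 CPM in NOD, 46.1 in 129, 46.6 in AJ and 47.0 in NZO, and none of the 6 pairs among them passed (edgeR adjusted p from 0.753 to 0.943). B6 followed at 69.5 ± 1.82 CPM (SD, n = 8; lowest 67.1, median 69.1, highest 72.2) and PWK at 74.6 ± 4.01 CPM (SD, n = 8), a pair that did not pass (adjusted p = 0.36). WSB had 95.1 ± 18.4 CPM (SD, n = 8; lowest 50.6, median 99.2, highest 108.5) and Cast 106 ± 24.8 CPM (SD, n = 7; lowest 71.9, median 108, highest 139), and neither did that pair (adjusted p = 0.164). PWK and WSB did differ (adjusted p = 0.000803). Within WSB the low value is that of WSB_1, while the 7 others had 97.7 to 108.5 CPM. The WSB difference was 0.69 ± 0.06 log2 units (adjusted p = 3.84e-14), and 0.78 without WSB_1 (adjusted p = 3.58e-20). Cast stood 0.86 ± 0.07 above the other strains (adjusted p = 9.13e-18), with Cast_6 and Cast_5 lowest at 71.9 and 77.5 CPM, and NOD stood 0.53 below (log2 fold change -0.53, adjusted p = 8.03e-09).

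Counted over the whole set, WSB stood out for higher levels. There 36 genes lay above and 9 below the average of the other 7 strains at edgeR's adjusted p under 0.05, against a background of 25.1% higher and 19.9% lower, so that 46.2% of the set was higher. The median difference was 0.13 log2 units for the set and 0.02 for all genes. Without WSB_1 the counts were 35 higher and 11 lower. Both subunits shared in it, with 25 of 50 large subunit genes higher and 8 lower, and 9 of 26 small subunit genes higher and 1 lower. The large subunit proteins of bacterial descent had 17 of 30 higher and 6 lower, with a median of 0.19. Besides Mrps35 and Mrpl3, Mrpl42 was higher at 126 ± 8.45 CPM (SD, n = 8; 0.40, adjusted p = 1.37e-08), and Mrpl32, whose protein is matured by a mitochondrial protease before it joins the ribosome, at 17.3 CPM (0.28, adjusted p = 5.71e-07). The lower genes in WSB were Mrpl15 with Mrpl23, Mrpl41, Mrpl10, Mrpl35, Mrpl16, Mrps27, Mrpl1 and Mrpl46.

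B6 and NZO had more lower than higher genes. In B6 10 were higher and 23 lower (background 17.5% and 14.7%), with a median of -0.08. On library totals in place of TMM 4 were higher and 56 lower, and the background above does not apply to that scale. The share of all genes called there is not given. The median on that scale was -0.20 for the set and -0.12 for all genes. The largest drop besides Mrpl23 was that of Mrpl20, a large subunit protein of bacterial descent, at 16.2 ± 0.947 CPM (SD, n = 8; lowest 14.7, median 16.1, highest 18.0; -0.66 ± 0.08, edgeR adjusted p = 1.82e-10). Mrpl55 was higher at 32.8 ± 2.28 CPM (SD, n = 8; lowest 30.1, median 32.0, highest 36.7; 0.65 ± 0.05, adjusted p = 7.54e-18), together with PWK at 31.3 CPM and WSB at 26.8 CPM, when the 5 other strains had 16.6 to 20.6 CPM. In NZO 13 were higher and 25 lower (background 22.1% and 18.5%), with a median of -0.06. Of the 10 small subunit genes specific to mitochondria 5 were lower and 1 higher, with a median of -0.15. Mrps22, which is linked to cardiomyopathy in people, had 12.5 ± 1.74 CPM in NZO (SD, n = 8; -0.30 ± 0.08, adjusted p = 0.0019).

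AJ was the reverse, with 25 higher and 11 lower (background 20.6% and 17.9%) and a median of 0.08. Its large subunit genes counted 16 higher and 5 lower. Mrpl15 and Mrpl34 led the higher genes, and Mrps5, a small subunit protein of bacterial descent, had the largest drop of any member, to 18.6 ± 0.968 CPM (SD, n = 8; lowest 16.8, median 18.8, highest 19.7; -0.60 ± 0.06, edgeR adjusted p = 1.63e-12). The AJ and WSB libraries of Mrps5 overlapped, since the lowest WSB library had 17.9 CPM. Mrps34 was higher in AJ by 0.46 (adjusted p = 2.72e-08).

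Cast and PWK, the strains with the most genes called in the whole table, split nearly evenly. Cast had 26 higher and 23 lower (background 30.6% and 29.3%; median 0.04), and PWK 23 higher and 25 lower (background 27% and 26.7%; median -0.01). Within Cast the small subunit genes specific to mitochondria had 5 of 10 higher and 1 lower, with a median of 0.18, and Mrps23, one of them, reached 105 ± 14.0 CPM (SD, n = 7; 0.45 ± 0.06, edgeR adjusted p = 8.82e-10). When Cast_1, Cast_5 and Cast_6 were left out together, 13 were lower in Cast in place of 23. These 3 libraries had the lowest summed levels of the set in Cast, 2390, 2301 and 2205 CPM against 2549 to 3104 CPM, and fibroblast marker sums of 546, 500 and 469 CPM against 776 to 901 CPM. Leaving out the libraries with the lowest sums, and testing with fewer Cast libraries, can by itself reduce the count of lower genes. The share of all genes called in that fit is not given here. The part of these differences in the counts was not tested. Within PWK, Mrpl44, an RNase III-like protein of the large subunit linked to cardiomyopathy, was lower at 27.3 ± 1.59 CPM (SD, n = 8; -0.35 ± 0.05, adjusted p = 2.47e-08), and Mrps14, also linked to it, was higher at 31.1 ± 2.00 CPM (SD, n = 8; 0.40 ± 0.06, adjusted p = 1.79e-07). On library totals, PWK had 37 higher and 12 lower, with a median of 0.11 for the set and 0.12 for all genes. The share of all genes called on library totals is not given.

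129 had 17 higher and 17 lower (background 16.8% and 14.4%; median 0.02), and NOD 10 higher and 14 lower (background 19% and 13.5%; median -0.03). In both the balance turned with the scale. On library totals 129 had 4 higher and 39 lower, and NOD 28 higher and 6 lower. On that scale the median difference of all genes was -0.16 in 129, -0.12 in B6, 0.12 in NOD and 0.12 in PWK. That of the set was -0.14, -0.20, 0.08 and 0.11 in the same order. The whole table thus moved in the same direction as the set. The sign of the set's median changed in 129, NOD and PWK. The share of all genes called on that scale is not given here. In NOD the largest rise of a protein-coding gene was that of Mrps12, the small subunit protein at the decoding site, at 14.9 ± 1.97 CPM (SD, n = 8; 0.40 ± 0.07, adjusted p = 4.85e-06), with NZO at 14.5 CPM and B6 at 14.1 CPM also higher and Cast lowest at 9.30 CPM.

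**Figure D3:**
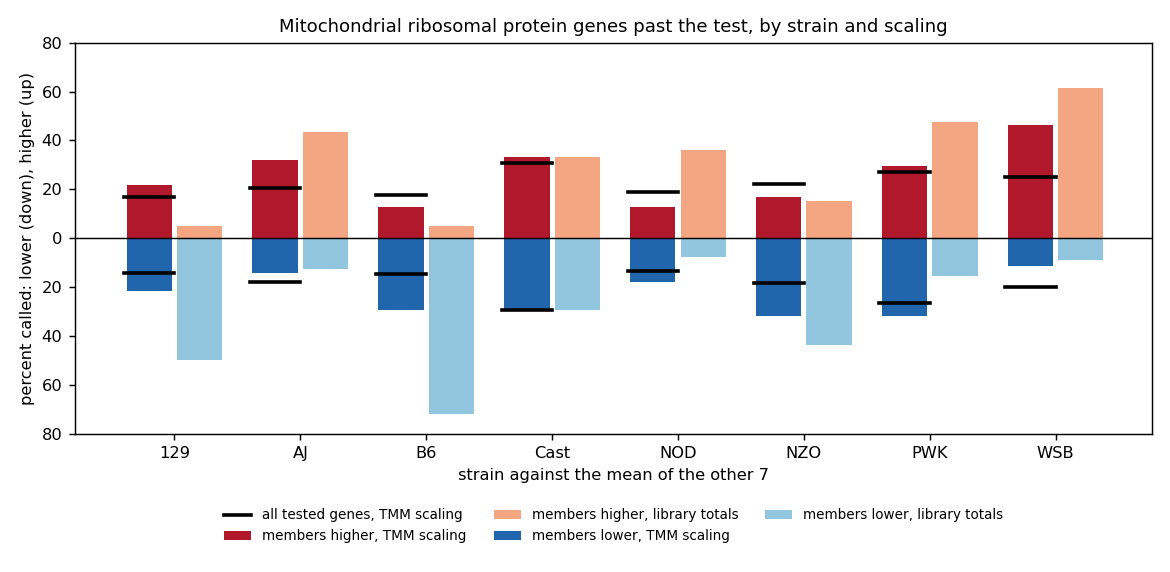
Percent of the 78 genes called higher (bars up) and lower (bars down) at adjusted p under 0.05 in each strain (x axis) against the mean of the other 7, with TMM scaling (dark) and library totals (pale), and black lines for all genes tested with TMM. With TMM, 46.2% of the set is higher in WSB and 12.8% in B6, where the lines stand at 25.1% and 17.5%. No line is drawn for library totals.

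**Figure D4:**
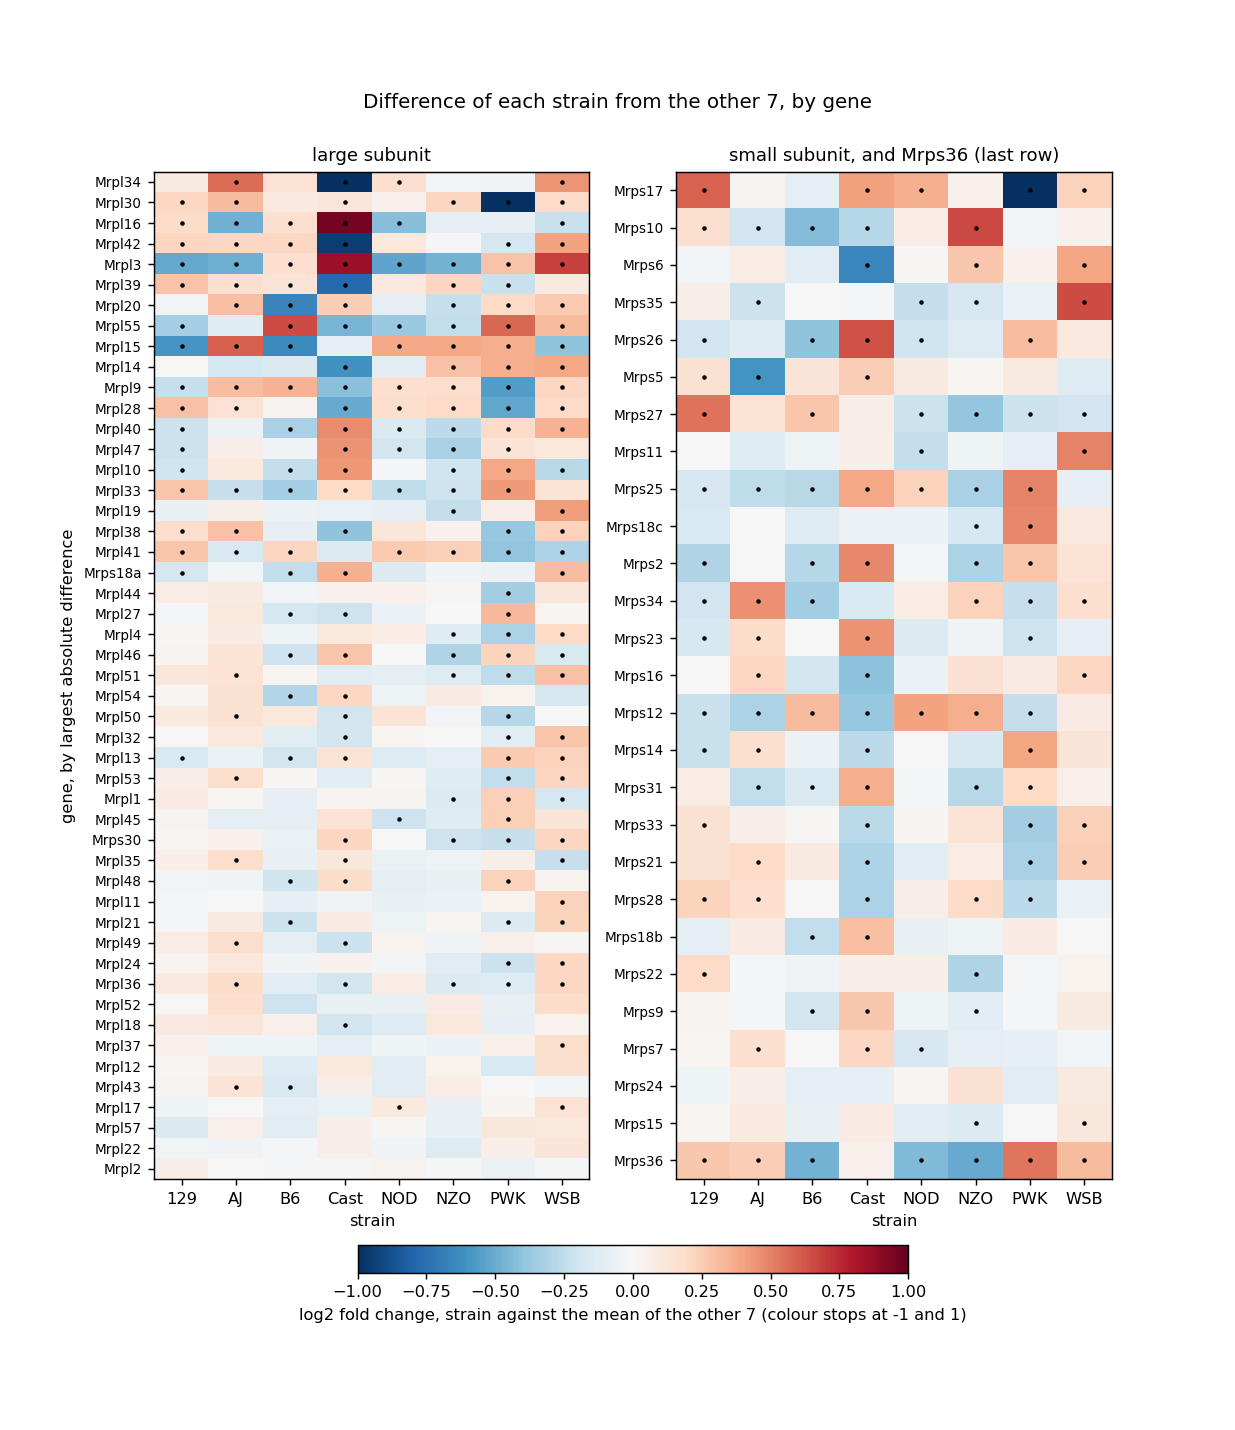
Log2 fold change of each strain (columns) against the mean of the other 7 for 76 genes (rows, sorted by largest absolute difference within a subunit), with dots where the adjusted p was under 0.05 and colours that stop at -1 and 1. The left panel holds 49 large subunit genes and the right panel 26 small subunit genes and Mrps36, with Mrpl23 and its pseudogene left out. The strongest blue cells are Mrps17 and Mrpl30 in PWK and Mrpl34 in Cast, at -1.57, -1.19 and -1.35.

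Single genes differed in how many strains they stood apart in. Of the 78, 6 passed in no strain, 4 in 1 strain and 10 in 7 strains, and 3 passed in all 8, namely Mrpl3, Mrpl9 and Mrpl23. These are 7.69%, 5.13%, 12.8% and 3.85% of the set, where 6.87%, 12.4%, 4.96% and 2.94% of all genes tested passed in as many strains. The 8 calls of Mrpl23 are those of its own row. Summed with Mrpl23-ps1 it passed only in Cast and PWK (edgeR adjusted p = 0.0176 and 0.0155). The highest strain mean was in WSB for 24 of the 77 protein-coding genes, in Cast for 17, in PWK for 12 and in AJ for 11, whereas NOD had the highest for 1 and B6 and NZO for 2 each. Without WSB_1, WSB had the highest mean for 15, AJ and Cast for 17 each and PWK for 14, so that the first place of WSB in this count rested on that library. The lowest mean was in B6 for 18, in PWK for 18, in Cast for 17 and in NZO for 12. Mrpl12, whose protein forms the stalk of the large subunit and is also known to bind the mitochondrial RNA polymerase, passed in no strain. Its strain means ran from 70.0 to 84.6 CPM, and it passed over all strains at an adjusted p of 0.0315.

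Mrps36, the member that is not a ribosomal protein, was among the most variable. NZO, B6 and NOD had 36.7 ± 2.87, 37.4 ± 1.53 and 38.2 ± 4.19 CPM (SD, n = 8 each), and PWK had 68.9 ± 4.42 CPM (SD, n = 8; lowest 60.3, median 69.4, highest 74.8). The libraries of PWK all lay above the highest of those 3 strains, 45.0 CPM. The difference was -0.50 ± 0.05 log2 units in NZO (edgeR adjusted p = 2.79e-12) and 0.53 ± 0.05 in PWK (adjusted p = 4.76e-15). It has 5 pseudogenes of at least 95% identity, which the count table does not list.

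Beyond these genes, 8 more had a difference of at least 0.49 log2 units in a strain and are given here after their values were seen. Of the small subunit, Mrps6 was lower in Cast at 12.2 ± 2.65 CPM (SD, n = 7; -0.65 ± 0.07, edgeR adjusted p = 2.86e-12) and higher in WSB at 23.0 ± 1.45 CPM (SD, n = 8; 0.39). Mrps26 was higher in Cast at 23.3 ± 3.28 CPM (SD, n = 7; 0.64 ± 0.06, adjusted p = 1.17e-13), and Mrps11 in WSB at 15.6 ± 1.27 CPM (SD, n = 8; 0.50 ± 0.06, adjusted p = 1.12e-10). Mrps27, an RNA-binding protein of the small subunit, was highest in 129 at 33.1 ± 2.87 CPM (SD, n = 8; 0.54 ± 0.07, adjusted p = 4.15e-09) and lowest in NZO at 18.8 ± 2.31 CPM (SD, n = 8; -0.39). Mrps25 was highest in PWK at 53.0 ± 1.92 CPM (SD, n = 8; 0.49 ± 0.04, adjusted p = 7.75e-16) and in Cast at 49.6 CPM, and lowest in NZO at 32.3 CPM. Of the Mrps25 exon bases 69.8% overlap Nr2c2 on the other strand. The part of that overlap in its level was not tested.

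The 3 large subunit genes among the 8 were low in Cast. Mrpl14, which lies at the subunit interface, had 19.2 ± 2.22 CPM there (SD, n = 7; -0.61 ± 0.09, edgeR adjusted p = 1.85e-08). Mrpl28 was low in both Cast and PWK, at 35.2 ± 3.67 (SD, n = 7) and 34.8 ± 2.50 CPM (SD, n = 8), with differences of -0.50 and -0.52, and Mrpl9 likewise, at 32.3 ± 4.21 and 29.7 ± 1.58 CPM (-0.42 and -0.56), when B6 and AJ had 51.3 and 50.2 CPM of Mrpl9. The remaining 44 genes had ranges of strain means from 0.20 to 0.70 log2 units, with a median of 0.40. Of these, 42 passed over all strains (background 89.4%). Over their 352 combinations of gene and strain, 71 were higher and 74 lower. Of all genes, 16.8% (129) to 30.6% (Cast) were higher in a strain and 13.5% (NOD) to 29.3% (Cast) lower. No difference that passed among the 44 was above 0.48 or below -0.41. That bound follows from the choice, since the genes with larger differences were named before.

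Between pairs of strains, the genes that differed at edgeR's adjusted p under 0.05 are given with the share of all genes tested that did so. 129 differed from B6 in 14 members (21.2%), from NOD in 17 (25.7%), from AJ in 21 (27.8%), from NZO in 21 (31.6%), from WSB in 35 (34.1%), from PWK in 41 (45.8%) and from Cast in 44 (53.8%). B6 differed from NOD in 14 (24.2%), from NZO in 18 (28.7%), from AJ in 33 (29.6%), from Cast in 46 (53.2%), from PWK in 46 (47.6%) and from WSB in 46 (36.7%). The fewest differences were thus those of B6 with 129 and NOD, each 17.9% of the set, where 21.2% and 24.2% of all genes differed. The pair of B6 and 129 also had the lowest share over all genes. AJ differed from NOD in 24 (22.2%), from NZO in 32 (27.7%), from WSB in 33 (41.7%), from Cast in 48 (56%) and from PWK in 50 (50.9%). NOD differed from NZO in 17 (25.1%), from WSB in 36 (36.5%), from PWK in 42 (49.1%) and from Cast in 49 (55.1%). NZO differed from PWK in 43 (51.8%), from WSB in 43 (43%) and from Cast in 50 (56.6%). Cast differed from WSB in 50 (53.2%) and from PWK in 37 (53.4%), and PWK from WSB in 46 (51.1%). WSB was the higher strain in 41 of the 46 genes that differed from B6, in 37 of the 43 from NZO and in 29 of the 36 from NOD. AJ was higher in 26 of the 33 genes that differed from B6 and in 26 of the 32 from NZO. Direction was not counted over all genes, so these splits have no background share. The median log2 difference from WSB was -0.19 in B6, -0.16 in NZO and -0.13 in NOD for the set. Over all genes each of these medians was -0.01. AJ minus B6 and AJ minus NZO had medians of 0.12 and 0.09 for the set, against -0.001 and 0.004 for all genes. These pairs share libraries with each other.

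The summed level of the set varied little between strains. It averaged 2475 ± 52.3 CPM in B6, 2501 ± 139 in NZO, 2509 ± 236 in NOD, 2509.9 ± 117 in PWK, 2606 ± 112 in 129, 2678 ± 101 in AJ and 2804 ± 197 in WSB (SD, n = 8 each), and 2607 ± 344 in Cast (SD, n = 7). Single libraries ran from 2205 CPM in Cast_6 to 3182 CPM in WSB_1. In Cast alone the libraries spanned 2205 to 3104 CPM, which overlapped with every other strain. B6 and WSB did not overlap, with 2560.8 CPM in the highest B6 and 2560.9 CPM in the lowest WSB library. The large subunit sum ran from 1694 ± 39.4 CPM in B6 to 1904 ± 109.7 CPM in WSB (SD, n = 8 each), and the small subunit sum started at 722 ± 12.03 CPM for B6 (SD, n = 8), with Cast at 815.7 ± 97.4 CPM (SD, n = 7) and WSB at 815.6 ± 76.9 CPM (SD, n = 8) almost level at the top. Without WSB_1, which had the highest small subunit sum of any library, WSB had 792 ± 42.5 CPM (SD, n = 7), and its full sum was 2749.8 ± 134 CPM, still the highest strain mean. No p is given for these sums, because they are scores over the genes of the set.

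The sum was also set against that of the nuclear genes for respiratory chain subunits. For every 1000 CPM of those genes, the set had 85.3 ± 7.98 CPM in Cast (SD, n = 7) at the lowest and 92.3 ± 2.44 CPM in AJ (SD, n = 8) at the highest. Genes of the mitochondrial genome took from 17.8% of the counts in PWK to 29.2% in B6, and with those genes left out of the scale B6 still had the lowest mean, 3222 CPM, and WSB the highest, 3627 CPM. On library totals the order was another, with 2361 CPM in 129, 2298 in B6 and 2701 in PWK. The parts of the mitochondrial share and of the cell mixture in these sums were not tested.

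**Figure D5:**
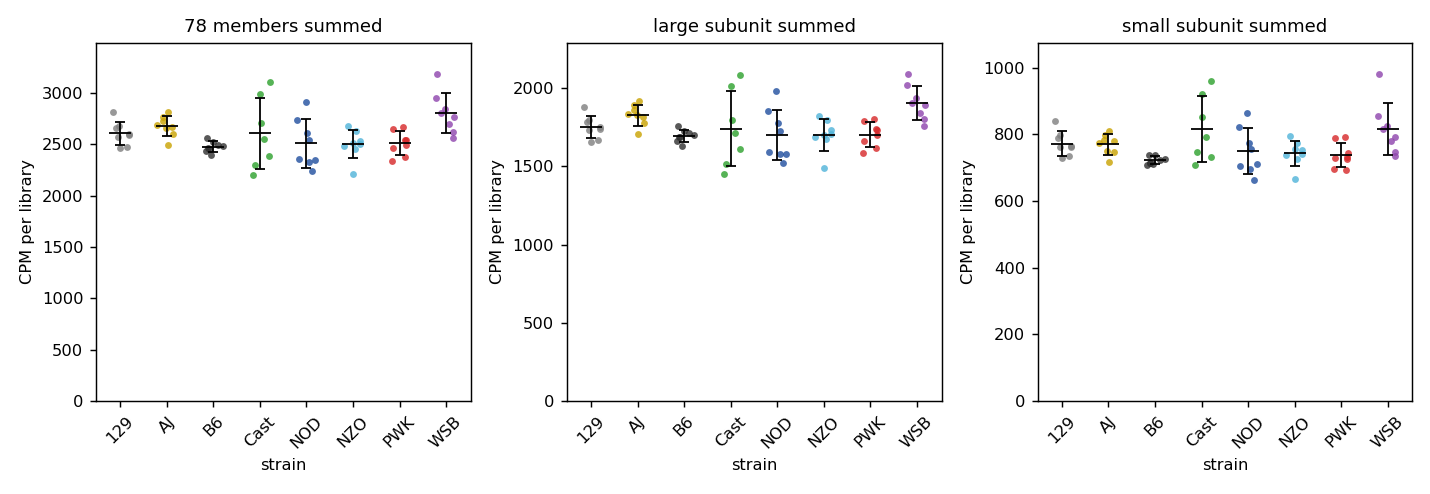
Summed CPM (y axis, from 0) of the 78 genes, of the 50 large subunit genes and of the 26 small subunit genes in each library (points) by strain (x axis), with mean and SD (black). The means of the full sum lie between 2475 CPM in B6 and 2804 CPM in WSB, and the libraries of Cast spread from 2205 to 3104.

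The partner genes of the mitochondrial ribosome are given by list, each beside the 89.4% of all genes that passed over all strains. All 6 subunits that carry other names passed. Ptcd3, a pentatricopeptide repeat protein of the small subunit, was lower in NOD at 70.2 ± 6.22 CPM (SD, n = 8; -0.59 ± 0.08, edgeR adjusted p = 1.14e-08) and higher in AJ at 129 ± 3.70 CPM (SD, n = 8; 0.42). Dap3, a GTP-binding subunit, was lower in PWK by 0.28 (log2 fold change -0.28, adjusted p = 6.5e-10) and higher in 129 by 0.24. In WSB, where the set leaned to higher levels, 2 of these 6 were higher and 2 lower (background 25.1% and 19.9%).

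All 25 measured assembly factors passed over all strains. In Cast 12 were higher and 8 lower (background 30.6% and 29.3%), and in WSB 4 were higher and 6 lower (25.1% and 19.9%). Mterf3, a mitochondrial transcription regulator also linked to ribosome assembly, was higher in Cast at 34.6 ± 1.84 CPM (SD, n = 7; 0.74 ± 0.04, edgeR adjusted p = 1.13e-22), whereas Nsun4, a methyltransferase of the ribosomal RNA, was lower there at 19.2 ± 4.07 CPM (SD, n = 7; -0.75 ± 0.07, adjusted p = 1.41e-13). Rbfa, which acts on the small subunit RNA, was lower in PWK at 10.004 ± 1.55 CPM (SD, n = 8; -0.70 ± 0.06, adjusted p = 2.41e-15) and higher in B6 by 0.56.

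Of 15 measured translation factors 12 passed over all strains, beside 89.4% of all genes, and the list is too short to set its share apart. In Cast 3 were higher and 7 lower (background 30.6% and 29.3%). Guf1, a GTPase that acts on the elongating ribosome, was lower in PWK at 12.3 ± 1.13 CPM (SD, n = 8; -1.08 ± 0.05, edgeR adjusted p = 6.65e-27). Mtrf1, a release factor, was lower in Cast at 3.86 ± 0.657 CPM (SD, n = 7; -1.10 ± 0.08, adjusted p = 8.21e-19). Of 20 genes on the list of mitochondrial tRNA synthetases 16 passed, beside the same 89.4%. In 129 9 were higher and 1 lower (background 16.8% and 14.4%), and in NZO 1 was higher and 8 lower (background 22.1% and 18.5%). Ears2 was higher in WSB at 27.0 ± 9.75 CPM (SD, n = 8; 1.45 ± 0.08, adjusted p = 4.84e-24), and Rars2 was lower in NZO at 5.85 ± 0.998 CPM (SD, n = 8; -0.99 ± 0.06, adjusted p = 8.58e-22) and in PWK by 0.85 (log2 fold change -0.85). All 16 measured genes of mitochondrial transcription and RNA handling passed, with 7 higher and 6 lower in Cast (background 30.6% and 29.3%).

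How reads were divided between genes also touches other members. Of the protein-coding members 21 have a pseudogene of at least 95% identity, and Mrpl23 is the only 1 of them whose pseudogene is in the count table. Exons of 27 members overlap another listed gene, 6 of them on the same strand, and strand use in counting is not given in the sources used here. Summed with Nme3, which shares exon sequence with it, Mrps34 was lower in Cast (-0.22, edgeR adjusted p = 0.00721) where alone it was not past the test (-0.15, adjusted p = 0.0621). In 129 the reverse held, with -0.08 for the sum (adjusted p = 0.402) and -0.19 alone (adjusted p = 0.0249). For Mrps18c in PWK the difference was 0.48 both alone and summed with Gm43511. Mrpl53 shares 88.0% of its exon bases with Gm42688 on the same strand. On their sum, AJ (0.16), PWK (-0.22) and WSB (0.21) passed, the same strains as for Mrpl53 alone (0.18, -0.24 and 0.22).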

How the data were processed

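The values analysed are expected counts (estimated, without normalisation) for each gene and library, as deposited by the authors, with GRCm38 named as genome in the submitters' processing notes. Non-whole numbers make up 18.4% of them (tolerance 1e-06), and every listed gene has counts in 32 libraries or more. The deposited log2 table of the authors, made with DESeq2 per the same notes, was not used. GRCm38 is the genome of B6. Aligner, counter, strand use and any use of strain-specific genomes: not given in the sources used here. Per the labels, polyA RNA was selected from pulverised frozen tissue.

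Counts were rounded and fitted with edgeR 4.0.16 (quasi-likelihood, robust) in R 4.3.3 with limma 3.58.1, after filterByExpr with a minimum count of 10, TMM scaling (factors 0.828 to 1.16) and 1 coefficient per strain over all 63 libraries, which left 55 residual degrees of freedom. Each strain was compared with the unweighted mean of the other 7, and p-values were adjusted over all 16425 genes by Benjamini-Hochberg. The contrasts share libraries. Log2 CPM for ranges used a prior count of 2. Alternatives included DESeq2 1.42.0. Gene positions follow the deposited annotation. Gene models, copies and coding bases come from GENCODE M21, searched with BLAST 2.17.0. The procedure was tested on simulated data. Intervals between libraries cover their spread only, which may be technical.

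Genes and lists were chosen with earlier results of these data known. Genes were named as follows: the 6 with the widest range of strain means, up to 2 per direction in each strain by log2 fold change, the 3 highest and 3 lowest per kilobase, the 2 with most and 2 with least variance between strains, those with a copy in the table, and Mrpl3, Mrpl12, Mrpl44, Mrps14 and Mrps22. Further genes are named for having no overlap between a strain and the others, or as stated. Of each partner list, up to 2 per direction in a strain could be named.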

Additional observations from a re-analysis of the deposited data

Results flagged for a closer look

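Within single strains, 9 of 65 groups of libraries tested had a library whose gap to its nearest neighbour was large for the range of the group, where chance gives about 1 in 20. That rate is for a single group. The groups share libraries and reads, as sums were tested beside their parts, so the 9 are not independent. WSB_1 accounts for 3 of the 9. It had 47.93 CPM of Mrpl23-ps1, when the other WSB libraries had 18.45 to 21.55, and 49.47 CPM of Mrpl23 and its pseudogene summed, against 20.16 to 23.14. It had 50.64 CPM of Mrpl3, when the others had 97.66 to 108.5.

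The other libraries far from their group were single cases. NZO_8 had 1488.0 CPM of large subunit genes, against 1675.0 to 1822.0 in the other NZO libraries. Cast_6 had 41.19 CPM of Mrpl16, against 48.48 to 53.67, which was still above every library of the other strains. 129_2 had 39.91 CPM of Mrpl15, against 35.25 to 37.34. AJ_3 had 3.455 CPM of Mrpl23, against 2.244 to 2.708, and WSB_6 had 2.829 CPM, against 0.9998 to 1.825. PWK_9 had 32.21 CPM of Mrpl23 and its pseudogene summed, against 25.52 to 28.68. The cause was not tested for any of these.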

How the results depend on the processing

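Of 153 counts of genes under the alternatives 143 stayed within 1.5 times the count reported, as did all 189 with 1 library left out. The summed levels under other scales, and the sums and highest means without WSB_1, were added after seeing the data. On library totals in place of TMM, higher and lower genes numbered 4 and 39 in 129, 4 and 56 in B6, 28 and 6 in NOD and 37 and 12 in PWK. The median difference of all genes on that scale was -0.16, -0.12, 0.12 and 0.12 in the same order, and the share of all genes called is not given. The summed level was 2361 CPM in 129, 2298 in B6 and 2701 in PWK. Without Cast_1, Cast_5 and Cast_6, the Cast libraries with the lowest sums of the set, 13 genes were lower in Cast and 22 in NOD. Shares of all genes called in that fit are not given. With the copies summed, Mrpl23 reversed to 0.0911 in 129, 0.0854 in AJ, -0.22 in Cast and 0.0501 in WSB, and of all strains Cast and PWK were past the test. The other 218 of 225 values of named genes kept their direction and call, as did 197 with 1 library left out. Leaving out single libraries gave 73 to 75 genes over all strains and 35 to 42 higher in WSB. DESeq2 tests and size factors, no filter on low counts and scaling without mitochondrial genes moved no count by over 1.5 times.

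With the replicate number as a block, 73 genes passed over all strains, and WSB had 34 higher and 9 lower. Of 199 pairs of same-numbered libraries from different strains, 40 had an r above 0.1. Their median was 0.0493, slightly higher than the -0.00959 for other numbers. These values do not decide whether the numbers mark pairs, and the main fit did not use them as such. A library correlated best with its own number in 14 of 63 cases. The block changed no call of a named gene. Depth gave each gene a mean of 240 to 3130 counts per library.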
